A study of Mus musculus with 20 samples.

Results

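The genes described here encode the major proteins of milk, and their RNA was measured in the inguinal fat pads of cycling female mice. They were chosen by symbol as 10 genes, namely the caseins Csn1s1, Csn1s2a, Csn2 and Csn3, the whey proteins Wap, Lalba and Ltf, and the fat globule proteins Mfge8, Muc1 and Xdh. Of the 10, 9 had an entry among the 35841 genes of the expression table. Wap had none and was not analysed here. No gene of the table was at 0 in all 20 libraries, and the paper counts the same 35841 as expressed. A gene without an entry, such as Wap, may therefore have been at 0 in every library, which could not be checked. The inguinal subcutaneous fat came from 20 female C57BL/6 mice at 8 weeks of age, with 5 mice in each of the groups proestrus, estrus, metestrus and diestrus. No group received a treatment, and the stage of each mouse was read from vaginal smears and serum ovarian hormones. One library of polyadenylated RNA was made per mouse, and libraries are called here by stage and replicate number. The values are the authors' FPKM, a measure of sequenced fragments corrected for the length of the gene and for the mapped fragments of the library.

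The inguinal pad of a female mouse surrounds a mammary gland, so a sample of it holds mammary ducts beside adipocytes. In lactation the luminal cells of the gland secrete caseins, whey proteins and lactose, and release lipid as globules wrapped in cell membrane. Prolactin drives much of this program through the kinase JAK2 and the transcription factor STAT5, together with glucocorticoids, insulin and the factor ELF5.

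The sequences that follow show a STAT-type motif found in the windows of Csn1s1, Csn2 and Csn1s2a and not in those of Lalba and Ltf. Whether the motif bears on the level of these genes was not tested. Each is the 300-base window from 250 bases before to 50 bases from the start site of the gene, taken from RefSeq on GRCm38.p6. Windows were matched for 8 of the 10 genes. Csn3 and Xdh were not among them, so the casein with the highest level could not be compared. Letters are in lower case, and capitals mark matches to TTCNNNGAA, a palindromic motif searched on both strands.
Csn1s1 (chr5:87665958-87666257, plus strand): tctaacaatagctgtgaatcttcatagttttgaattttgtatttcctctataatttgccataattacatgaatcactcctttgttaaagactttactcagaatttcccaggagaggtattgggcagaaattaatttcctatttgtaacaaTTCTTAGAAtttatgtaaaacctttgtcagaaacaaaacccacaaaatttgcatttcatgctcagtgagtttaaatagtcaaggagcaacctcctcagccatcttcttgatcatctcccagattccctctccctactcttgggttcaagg
Csn2 (chr5:87699376-87699675, minus strand): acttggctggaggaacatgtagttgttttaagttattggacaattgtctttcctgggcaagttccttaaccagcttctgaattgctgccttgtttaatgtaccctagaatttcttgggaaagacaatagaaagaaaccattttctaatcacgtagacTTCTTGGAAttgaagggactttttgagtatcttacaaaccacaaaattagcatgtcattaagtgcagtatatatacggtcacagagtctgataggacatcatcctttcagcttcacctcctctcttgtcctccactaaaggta
Csn1s2a (chr5:87774200-87774499, plus strand): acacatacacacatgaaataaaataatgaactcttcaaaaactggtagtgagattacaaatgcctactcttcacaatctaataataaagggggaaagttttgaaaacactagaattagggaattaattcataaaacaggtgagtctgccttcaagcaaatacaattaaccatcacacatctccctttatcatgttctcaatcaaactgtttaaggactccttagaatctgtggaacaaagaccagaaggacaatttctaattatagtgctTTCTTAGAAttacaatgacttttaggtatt
Lalba (chr15:98482634-98482933, minus strand): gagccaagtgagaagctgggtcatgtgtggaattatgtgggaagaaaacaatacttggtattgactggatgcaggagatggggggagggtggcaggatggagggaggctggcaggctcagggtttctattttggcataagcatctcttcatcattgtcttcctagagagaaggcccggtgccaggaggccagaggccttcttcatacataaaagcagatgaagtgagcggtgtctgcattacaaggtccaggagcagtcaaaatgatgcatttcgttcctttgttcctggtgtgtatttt
Ltf (chr9:111019042-111019341, plus strand): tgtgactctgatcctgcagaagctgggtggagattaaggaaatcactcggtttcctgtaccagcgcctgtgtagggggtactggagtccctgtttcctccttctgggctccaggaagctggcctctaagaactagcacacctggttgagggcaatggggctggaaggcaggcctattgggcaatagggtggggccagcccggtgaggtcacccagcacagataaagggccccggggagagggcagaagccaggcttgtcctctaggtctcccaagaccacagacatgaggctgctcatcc
The match in Csn1s1 was TTCTTAGAA from position -100 to -92, and that in Csn2 was TTCTTGGAA from -93 to -85, counted from the start site. In Csn1s2a the match, TTCTTAGAA, lay at 21 to 29 after the start site of RefSeq. That window ends at 87774499, before the first base of the gene in GENCODE M21, 87774567. Counted from that base the match would lie upstream. Start sites of RefSeq can differ from the gene bounds of GENCODE M21 given below. The windows of Lalba, Ltf, Mfge8, Muc1 and Wap held no match. Among these Ltf and Mfge8 were high, Lalba and Muc1 were low, and Wap had no entry in the expression table. Over all 32851 windows of the same length, 8.30% held one. The estrogen response element was found in 0.07% of all windows and in none of the 8, and the palindromic glucocorticoid response element in 0.009% and in none of the 8. A TATAAA stood at -31 to -26 in Muc1 and in none of the other matched windows, against 13.6% of all windows. A match describes letters in the window, and no binding was measured.

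A few facts of the libraries bear on what follows. The sum of FPKM ranged from 373659 to 452647 per library, and 23272 to 27323 genes were above 0. Metestrus-3 held the skeletal muscle markers at a mean log2(FPKM + 1) of 9.75, with no other library above 5.27, and it had the lowest luminal epithelium score, 3.46. Proestrus-2, whose RNA the study took from another stored portion of the tissue because the first was of insufficient quality, had the highest luminal score, 4.96. Lymphocyte markers were low in 8 libraries, at most 2.16, and high in the other 12, at least 3.16, and both kinds occurred at each stage. The luminal score is the mean of 12 genes that mark the secretory and ductal lining cells, and all 12 were above 0 in all 20 libraries. Among them Krt8 ranged from 31.2 to 164 FPKM and Epcam from 24.9 to 64.9 FPKM. In such bulk samples fewer cells of a type and less RNA per cell cannot be told apart.

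Csn3 was the one casein present at a substantial level, while the other 3 were at or near 0. Csn3, the kappa-casein that coats and stabilises the casein micelle, had a median of 12.7 FPKM and was above 0 in all 20 libraries. The calcium-binding alpha-caseins Csn1s1 and Csn1s2a and the beta-casein Csn2 form the body of the micelle. Csn1s1 was above 0 in 12 libraries and never over 0.0291 FPKM, the value of proestrus-1. Csn2 was above 0 in 10 libraries, with a highest value of 0.0264 FPKM in diestrus-3. Csn1s2a was above 0 in 5 libraries, with 0.0129 FPKM in proestrus-1, 0.0254 in metestrus-1, 0.0132 in metestrus-2, 0.0676 in metestrus-3 and 0.0128 in metestrus-4. It was listed at 0 in all estrus and diestrus libraries. In 6 libraries, proestrus-2, -4 and -5, estrus-4 and diestrus-2 and -5, all 3 were listed at 0. In the remaining libraries Csn3 was 95.9 to 3302 times the largest of the 3 on the FPKM scale, which corrects for gene length. As fragments, FPKM times the exon length in kilobases, Csn3 made up at least 98.1% of the sum of the 4 caseins, the lowest share being that of metestrus-3.

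**Figure D1:**
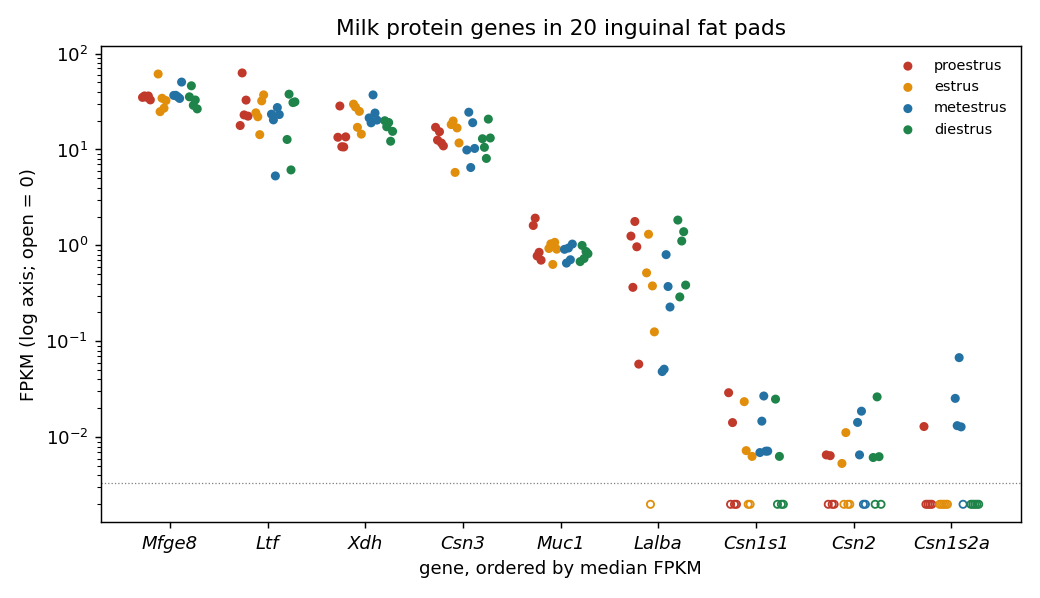
FPKM of the 9 milk genes in each of 20 libraries on a log axis, coloured by stage and ordered by median; open points below the dotted line are values of 0. Csn3 sits between 5.76 and 24.4 FPKM, and the other 3 caseins at or below 0.0676 FPKM.

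The caseins lie close together on chromosome 5 (GRCm38, GENCODE M21), where Csn1s1 spans 87666208 to 87682578 and Csn3 spans 87925579 to 87932665, both on the plus strand. Csn2 spans 87692624 to 87699630 on the minus strand and Csn1s2a 87774567 to 87788797 on the plus strand. Between Csn1s2a and Csn3 lie Csn1s2b, a further alpha-casein, Prr27 and Odam, a protein of the tooth-enamel organ. Csn1s2b was above 0 in 6 libraries, at most 0.0763 FPKM, and Odam in 2, at most 0.0317 FPKM. On the far side of Csn1s1 the sulfotransferase Sult1e1 was above 0 in 1 library, and Sult1d1 had a median of 0.0176 FPKM. Beyond Csn3, Smr2 was above 0 in 1 library. Prr27 and the other protein-coding neighbours within 5 genes on either side had no entry. Of the listed genes in this interval Csn3 was the only one above 0.151 FPKM in any library. Csn3 overlaps the antisense transcript 1700066N21Rik, which had no entry, and whether counting used the strand is not given in the sources used here.

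**Figure D2:**
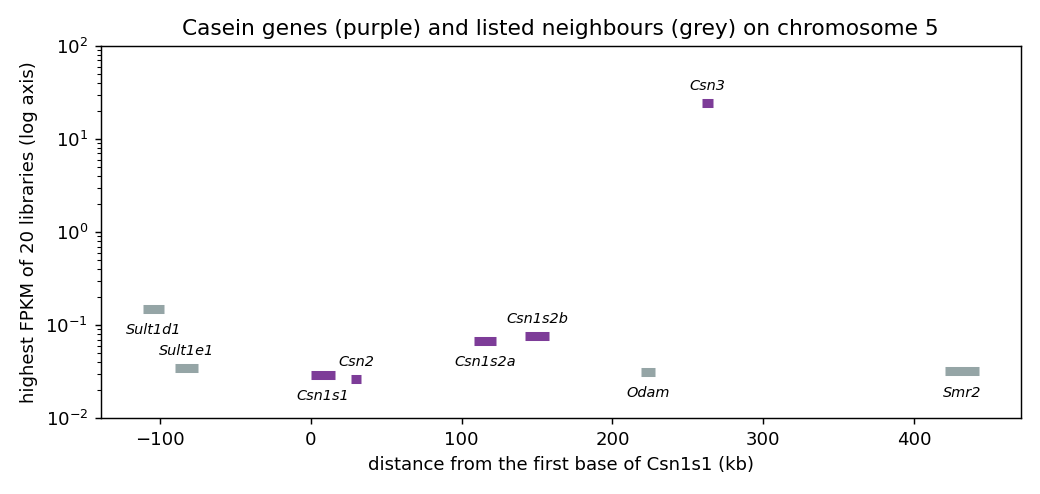
Highest FPKM of 20 libraries (log axis) of each listed protein-coding gene around the caseins, drawn to scale by distance in kb from the first base of Csn1s1. Csn3 reached 24.4 FPKM, and the listed genes around it stayed at or below 0.151 FPKM.

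Csn3 varied 4.24-fold between mice, and the stages had nearly the same mean. At proestrus the 5 values were 17.0, 12.5, 15.3, 11.7 and 10.9 FPKM. At estrus they were 18.2, 19.8, 5.76, 16.8 and 11.7 FPKM. At metestrus they were 9.87, 24.4, 6.48, 19.0 and 10.2 FPKM, and at diestrus 12.9, 10.5, 8.06, 20.7 and 13.2 FPKM. All stages overlapped, and both the lowest value, in estrus-3, and the highest, in metestrus-2, came from stages with wide spread. The means were 13.5 ± 2.59, 14.4 ± 5.72, 14.0 ± 7.45 and 13.1 ± 4.75 FPKM in stage order from proestrus to diestrus (SD, n = 5).

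Lalba, the regulatory subunit of lactose synthase, was low and very uneven between mice. At proestrus the values were 1.25, 0.365, 1.77, 0.967 and 0.0578 FPKM, and at estrus 0.517, 1.31, 0, 0.378 and 0.125 FPKM. At metestrus they were 0.0484, 0.0512, 0.801, 0.373 and 0.228 FPKM, and at diestrus 1.84, 0.29, 1.11, 1.39 and 0.386 FPKM. It reached 1 FPKM in 6 libraries, 2 of them at proestrus, 1 at estrus and 3 at diestrus, so no metestrus library did, but all stages overlapped. The means were 0.883 ± 0.686, 0.465 ± 0.512, 0.300 ± 0.311 and 1.0 ± 0.660 FPKM in stage order from proestrus to diestrus (SD, n = 5).

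Ltf, or lactoferrin, an iron-binding protein of milk and other secretions, was far more abundant, with a median of 23.2 FPKM. At proestrus the values were 17.8, 62.7, 22.9, 32.7 and 22.2 FPKM. At estrus they were 24.1, 21.9, 14.3, 32.1 and 37.1 FPKM, and at metestrus 23.3, 20.3, 5.30, 27.3 and 23.1 FPKM. At diestrus they were 12.7, 37.7, 6.12, 30.8 and 31.3 FPKM. Proestrus-2 was the highest library and metestrus-3 the lowest, and the stages overlapped. The means were 31.7 ± 18.2, 25.9 ± 8.90, 19.9 ± 8.53 and 23.7 ± 13.6 FPKM in stage order from proestrus to diestrus (SD, n = 5). Neutrophils also store lactoferrin in their granules. Of 10 neutrophil markers 4 were above 0 in all libraries and 3, namely Camp, Mpo and Ly6g, had a median of 0. Their summed level was 2.61 to 12.9 FPKM in proestrus mice, 4.75 to 13.4 in estrus mice, 4.90 to 7.94 in metestrus mice and 3.02 to 13.6 in diestrus mice.

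Among the fat globule proteins Mfge8, or lactadherin, which binds phosphatidylserine on membranes, had the highest median of the 9 genes, 35.0 FPKM. At proestrus the values were 34.9, 36.1, 35.1, 36.1 and 32.9 FPKM, and at estrus 61.2, 24.8, 34.2, 27.0 and 32.3 FPKM. At metestrus they were 36.6, 36.7, 35.4, 34.0 and 50.4 FPKM, and at diestrus 35.4, 46.1, 28.9, 32.8 and 26.5 FPKM. Proestrus mice were tightly grouped, with a mean of 35.0 ± 1.33 FPKM (SD, n = 5), and single mice stood above the others at estrus and metestrus. Mfge8 is also made by cells outside the gland, macrophages among them.

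Muc1, a mucin of the apical membrane of epithelial cells, was low, with a median of 0.887 FPKM. It lay between 0.633 FPKM in estrus-3 and 1.92 FPKM in proestrus-2, and reached 1 FPKM in 5 libraries. Its mean was 1.17 ± 0.557 FPKM at proestrus, where proestrus-1 had 1.61 FPKM and proestrus-2 the highest value, and 0.818 to 0.917 FPKM at the other stages, and these overlapped.

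Xdh encodes xanthine oxidoreductase, which breaks down purines and, in the mammary gland, is needed to enclose fat globules. At proestrus its values were 13.4, 28.4, 10.7, 10.6 and 13.5 FPKM, and at estrus 29.7, 27.7, 17.0, 25.0 and 14.5 FPKM. At metestrus they were 21.3, 19.0, 37.0, 24.0 and 20.2 FPKM, and at diestrus 19.9, 17.2, 19.1, 12.2 and 15.4 FPKM. The 4 proestrus mice other than proestrus-2 were below all 5 metestrus mice, and proestrus-2 lay within the metestrus range. The means were 15.3 ± 7.43, 22.8 ± 6.69, 24.3 ± 7.35 and 16.8 ± 3.10 FPKM in stage order from proestrus to diestrus (SD, n = 5). Xdh overlaps the pseudogene CT025731.2 on the same strand, so reads could be shared.

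**Figure D3:**
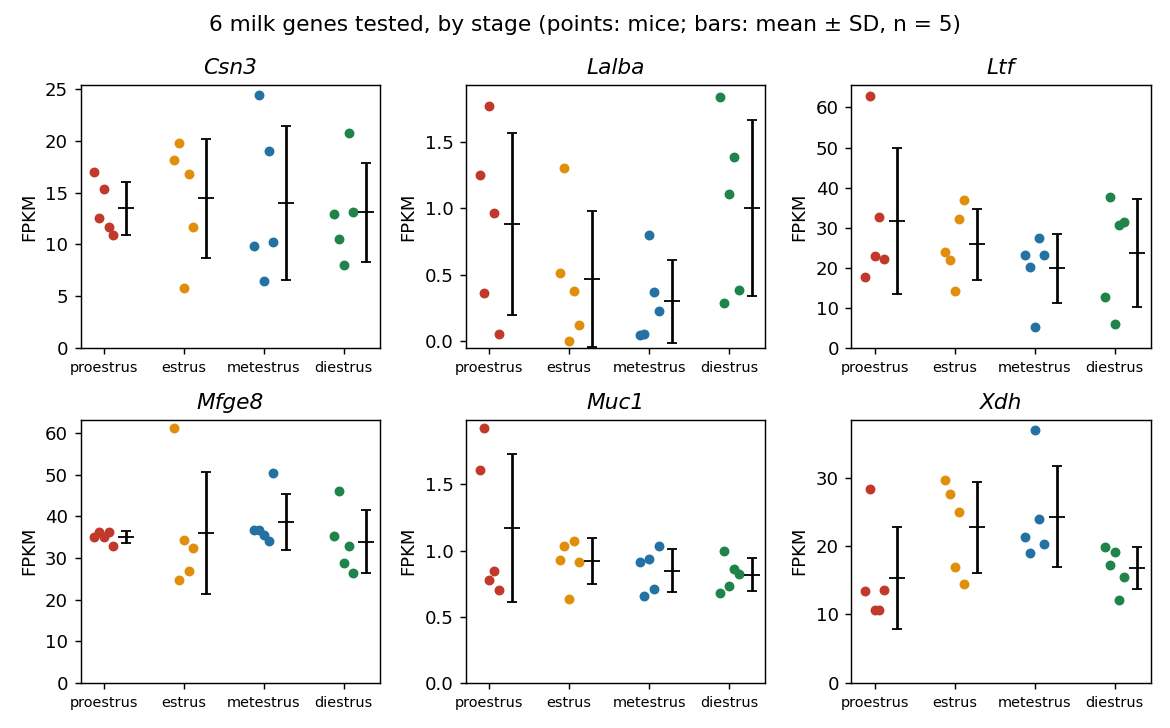
FPKM of the 6 milk genes that passed the filter, by stage; each point is a mouse and the bar beside it the mean ± SD (n = 5). In Xdh the 5 metestrus mice lie at 19.0 to 37.0 FPKM and 4 of the 5 proestrus mice at 10.6 to 13.5.

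The whey and fat globule genes lie on other chromosomes of GRCm38 (GENCODE M21), Lalba on chromosome 15 from 98480400 to 98482721, Ltf on chromosome 9 from 111019271 to 111042767 and Mfge8 on chromosome 7 from 79133768 to 79149060. Muc1 spans 89229057 to 89233381 on chromosome 3 and Xdh 73883895 to 73950196 on chromosome 17. By median FPKM the order was Mfge8, Ltf, Xdh, Csn3, Muc1, Lalba, Csn1s1, Csn2 and Csn1s2a. Mfge8 was above Ltf in 16 of 20 libraries, Ltf above Xdh in 14 and Xdh above Csn3 in 15, so these 4 overlapped in range. Csn3 was above Muc1 in 20 of 20 and their ranges did not overlap. Muc1 exceeded Lalba in 14 libraries, and Lalba exceeded Csn1s1 in 19. Counted as fragments, FPKM times exon length in kilobases, Xdh with a median of 175 stood beside Mfge8 at 164, and each was ahead in 10 libraries.

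Stages were compared on log2(FPKM + 1) with limma, over the 13987 genes that reached 1 FPKM in 5 or more libraries. Of the 9 genes 6 passed this filter, namely Csn3, Lalba, Ltf, Mfge8, Muc1 and Xdh. None of the 6 had an adjusted p under 0.05 in any of the 6 pairs of stages. From proestrus to estrus 0 of 6 were called, against 0.143% of all genes tested, and from estrus to metestrus 0 of 6, against 0.222%. From metestrus to diestrus 0 of 6 were called (1.24% of all genes) and from diestrus to proestrus 0 of 6 (0.0143%). For metestrus minus proestrus 0 of 6 were called (0.879%), and for diestrus minus estrus 0 of 6 (0%). In the F test among the 4 stages 0 of 6 passed, against 0.736% of all genes. An unadjusted p under 0.05 was found in 2 of the 36 tests of pairs, both of Xdh. These were 1 of 6 from proestrus to estrus (6.69% of all genes) and 1 of 6 for metestrus minus proestrus (10.5%), with 0 of 6 from estrus to metestrus (8.13%), from metestrus to diestrus (12.1%), from diestrus to proestrus (3.96%) and for diestrus minus estrus (6.08%). In the F test it was 1 of 6, Xdh, against 10.7% of all genes.

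The 5 mice of one stage overlapped the 5 of the other in all 36 comparisons of these 6 genes. Of all genes tested, the share without overlap was 0.736% between proestrus and estrus, 1.67% between estrus and metestrus and 3.25% between metestrus and diestrus. It was 0.486% between diestrus and proestrus, 2.51% between metestrus and proestrus and 1.43% between diestrus and estrus.

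Of the genes that passed the filter, Xdh came nearest to a difference. It was higher at metestrus than at proestrus by 0.69 ± 0.25 on the log2 scale (SE; 95% interval 0.16 to 1.21), with an unadjusted p of 0.0131 and an adjusted p of 0.257 in limma. From proestrus to estrus it was higher by 0.59, with an adjusted p of 0.727 in limma. Without proestrus-2 the metestrus difference was 0.92 with an adjusted p of 0.0311, and with quality weights for libraries it was 0.81 with an adjusted p of 0.0453, both in limma, so the call turned on these choices. Calls among all genes tested also rose, from 123 in the main fit to 329 without proestrus-2 and 494 with the weights. Over the omission of each library in turn the limma adjusted p ranged from 0.0311 to 0.556, and over the other alternatives from 0.0453 to 0.460. Without both proestrus-2 and metestrus-3 it was 0.76, with an adjusted p of 0.0570 in limma, an alternative chosen after the data were seen. Markers of other cells differed in the same comparison before adjustment, and none passed it. For metestrus minus proestrus 6 of 8 macrophage markers had an unadjusted p under 0.05 in limma. Their median difference was 0.88 and their smallest adjusted p in limma 0.0722. Of 8 basal epithelium markers 5 did, with a median of 0.58. Of 12 luminal epithelium markers 3 did, with a median of -0.15 and a smallest adjusted p of 0.0646 in limma. The share of all genes was 10.5%, with a median of -0.01. The summed macrophage markers, all 8 above 0 in every library, ranged from 68.8 to 311 FPKM in proestrus mice and from 237 to 367 FPKM in metestrus mice. The summed basal markers, also all 8 above 0, ranged from 49.1 to 168 and from 94.7 to 177 FPKM. The part of these in the difference of Xdh was not tested. Correlations were run with the luminal, basal, neutrophil, endothelium and adipocyte scores only, so none of Xdh with the macrophage score is given. Over the 20 libraries Xdh and the basal score had r = 0.40 and rho = 0.490 (adjusted permutation p = 0.493 and 0.261). Without proestrus-1 and metestrus-2 r was 0.403. With stage means subtracted r was 0.144 (adjusted permutation p = 0.799).

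The other 5 genes had 95% intervals that include 0 in all 6 pairs. The differences of Csn3 between stages lay from -0.09 to 0.08, with 95% intervals reaching from -0.78 to 0.77 on the log2 scale. For Mfge8 they lay from -0.19 to 0.16, with intervals from -0.59 to 0.56, and for Muc1 from -0.20 to 0.22, with intervals from -0.49 to 0.51. Ltf and Lalba were wider. Ltf differed most for metestrus minus proestrus, by -0.67 with a limma adjusted p of 0.737, and its intervals reached from -1.66 to 1.5. Without proestrus-2 and metestrus-3 together that difference was 0.0035. Lalba differed most for diestrus minus metestrus, by 0.59 with a 95% interval of -0.01 to 1.18 and an adjusted p of 0.424 in limma. For low genes such as Lalba and Muc1 the pseudocount shrinks a difference, and the intervals hold on that scale only. With a pseudocount of 0.1 that difference of Lalba was 1.54 (adjusted p = 0.457 in limma), outside the interval above, and the difference of Muc1 for proestrus minus diestrus was 0.37 in place of 0.22. When all 35841 genes were fitted without a filter, the F test of limma gave adjusted p of 0.962 for Csn1s1, 0.930 for Csn2 and 0.611 for Csn1s2a. For Xdh that test gave an adjusted p of 0.714. Csn1s2a, above 0 in 5 libraries only and never over 0.0676 FPKM, thus had a smaller adjusted p than Xdh in that fit. Values so near 0 may rest on a few fragments, so this order does not rank the genes.

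**Figure D4:**
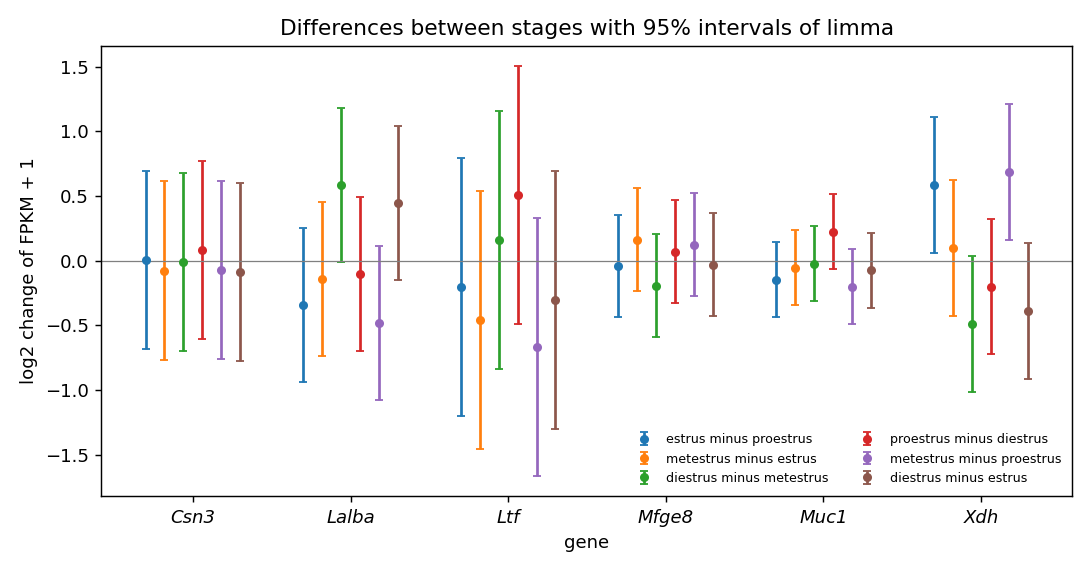
Differences of log2(FPKM + 1) between stages for the 6 milk genes tested in limma, with 95% intervals, for each of 6 pairs of stages. The interval of Xdh for metestrus minus proestrus runs from 0.16 to 1.21, and those of Ltf are the widest.

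Of 10 further milk proteins all had an entry and 5 were tested, with 0 called in any pair or in the F test of limma. Trf, or transferrin, had a median of 623 FPKM, Wfdc18 one of 14.2 FPKM and the iron-siderophore carrier Lcn2 one of 13.9 FPKM. Csn1s2b, the milk lipase Cel and the peroxidase Lpo stayed at or below 0.157 FPKM in all libraries. Glycam1, a mucin of milk that lymph node vessels also make, ranged from 0 to 171 FPKM, the highest value being in estrus-3, which also had the highest lymphocyte score. Of 6 other fat globule genes all were tested and 0 were called, with Btn1a1, the butyrophilin of the globule membrane, at 1.46 to 6.75 FPKM. The list of lactose and ion transport genes gave 0 called of 6 tested, among them Ugp2 at 42.4 to 82.1 FPKM.

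The receptor and factors that act on milk genes were present in every library. Prlr, the prolactin receptor, ranged from 18.7 to 57.5 FPKM and was highest in proestrus-2. Elf5 ranged from 2.57 to 5.13 FPKM. Of 16 lactogenic signal genes 15 were tested, with 0 called and 5 at an unadjusted p under 0.05 in the F test of limma, which 10.7% of all genes reached. Stat5a, a transducer of the prolactin signal, had a mean of 15.0 ± 2.73 FPKM at proestrus and 9.64 to 10.4 FPKM at the other stages (F test of limma, adjusted p = 0.0692). Cebpb, a factor of secretory and fat cells, had an adjusted p of 0.0728 in the same test. Of 6 ovarian steroid and paracrine genes 5 were tested. Among them Wnt4, a signal induced by progesterone in mammary cells, was lower at diestrus than at metestrus by -0.79 (adjusted p = 0.0438 in limma), and Pgr, the progesterone receptor, had an F test adjusted p of 0.153 in limma.

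Of the 12 luminal markers 0 were called by the F test of limma, and Krt7, a keratin of simple epithelia, came nearest with an adjusted p of 0.0857. For proestrus minus diestrus 8 of the 12 had an unadjusted p under 0.05 in limma, against 3.96% of all genes, with a median difference of 0.55. The 8 basal epithelium, 8 endothelium, 8 macrophage, 10 lymphocyte and 8 skeletal muscle markers likewise gave 0 called in the F test and in the pairs. Of the 10 adipocyte markers 0 were called in the F test, while Cidec, a lipid droplet protein, was lower at diestrus than at metestrus by -1.02 (adjusted p = 0.0282 in limma). Of the 10 neutrophil markers 4 were tested and 0 were called.

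Across the 20 libraries Ltf moved with the luminal epithelium score. The correlation of log2(FPKM + 1) was r = 0.753 (permutation p = 0.000220, adjusted p = 0.00990 over 45 relations of 9 genes with 5 marker scores), with Spearman's rho = 0.453 (permutation p = 0.0464, adjusted 0.261). The 2 libraries farthest from the median score were metestrus-3 and proestrus-2. Without them r was 0.525 (permutation p = 0.0269, adjusted 0.606), so passing the threshold rested on those libraries. Leaving out 1 library at a time gave r of 0.644 to 0.823, and the call was lost without proestrus-2, metestrus-3 or diestrus-3, with adjusted permutation p of 0.0828, 0.150 and 0.0657. With stage means subtracted r was 0.809, with an adjusted permutation p of 0.00045. Without that subtraction none of the other 44 relations passed the threshold. With it 2 more did, those of Csn1s2a with the luminal score (r = -0.721, adjusted permutation p = 0.0465) and with the basal score (r = -0.659, adjusted permutation p = 0.0448). Csn1s2a was above 0 in 5 libraries only, with its highest value in metestrus-3. It was at 0 in all estrus and diestrus libraries, which the permutation did not take into account. Before the subtraction these relations had r = -0.397 and -0.161, and rho = 0.0909 and 0.00791. Without metestrus-3 and proestrus-2 the luminal r was 0.357, and leaving out 1 library gave -0.464 to 0.247. For the basal score that range was -0.239 to 0.128. The relation of Xdh with the endothelium score had r = 0.588 and rho = 0.562 (adjusted permutation p = 0.142 and 0.238), and without estrus-1 and estrus-3, the libraries farthest from the median, r was 0.549. That of Csn3 with the luminal score had r = 0.492 and rho = 0.435 (adjusted permutation p = 0.303 and 0.261), and without metestrus-3 and proestrus-2 r was 0.433. Ltf and the neutrophil score gave r = -0.304 and rho = -0.292 (adjusted permutation p = 0.518 and 0.562), and without diestrus-3 and diestrus-1 r was 0.00668. No sequencing batch is given in the labels.

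**Figure D5:**
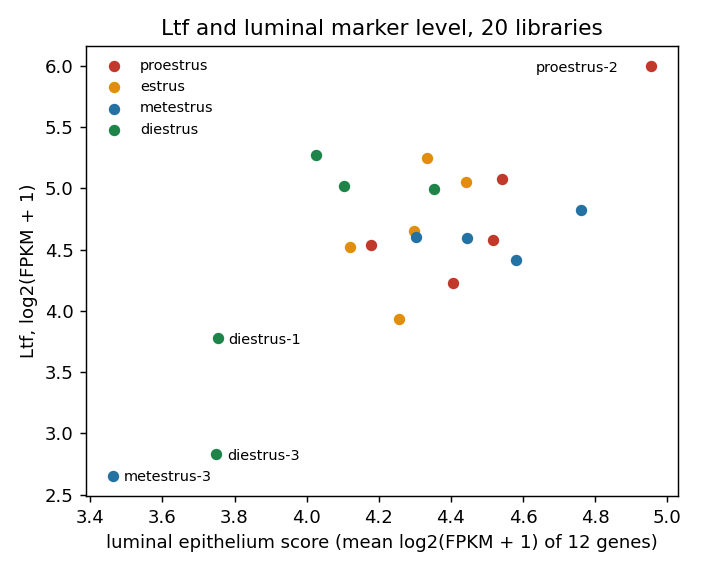
Ltf, as log2(FPKM + 1), against the luminal epithelium score, the mean log2(FPKM + 1) of 12 marker genes, one point per library coloured by stage. Metestrus-3, at a score of 3.46, and proestrus-2, at 4.96, lie at the ends of the range.

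Between pairs of the 6 tested milk genes r over the 20 libraries lay from -0.285, for Ltf and Lalba, to 0.440, for Ltf and Csn3. The genes whose log2(FPKM + 1) was most like that of each gene over the same libraries, of 13966 symbols, are given as a description. For Xdh they were Grb10 (r = 0.926), Zhx3 (r = 0.911) and Evc2 (r = 0.901). For Ltf they included Tmem102 (r = 0.864) and the epithelial factor Elf3 (r = 0.857). For Csn3 they were Snupn (r = 0.702), Stc2 (r = 0.694) and Atpif1 (r = 0.690). For Mfge8 they were Gart (r = 0.820), Gpr107 (r = 0.806) and Pxdc1 (r = 0.805). For Lalba they included Bcas1 (r = 0.765) and AC156572.2 (r = 0.738), and for Muc1 they were mt-Tg (r = 0.768), Sec24b (r = 0.760) and Chrna1os (r = 0.751). These points share the libraries' depth and tissue makeup.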

How the data were processed

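RNA of inguinal fat from 20 mice was sequenced, 5 per stage, with 1 library per mouse. The deposited values are FPKM per gene. By the paper, the authors enriched mRNA with oligo(dT), sequenced paired ends, trimmed reads with Skewer, aligned them to GRCm38 with STAR and counted with HTSeq, whereas StringTie 1.3.1c stands beside STAR 2.5.3a and FastQC 0.11.5 in the notes of the submitters on processing. Which of them gave the FPKM is not given in the sources used here. Of 250117 values below 10 FPKM, 98.6% became whole millionths (tolerance 0.05, chance 10%) when multiplied by the GENCODE M21 exon length, so this length was used to weight FPKM by length. Whole reads were not recovered (36.9% to 43.3% of low values per library lay within 0.1 of a step, chance 20%), so no count test was run. The paper gives reads per library, which were not used here, and the number of fragments behind a low value was not recovered.

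Values were taken to log2(FPKM + 1), and genes that reached 1 FPKM in 5 or more libraries were fitted with limma 3.58.1 (R 4.3.3), with 1 mean per stage and a variance trend. P-values were adjusted by Benjamini-Hochberg over 13987 genes at 0.05. Correlations used 100000 permutations, two-sided, with numpy 2.4.6 in Python 3.11.15. The fit was tested on simulated data. Of the 35841 identifiers 35766 were in GENCODE M21. Symbols that were missing or turned into dates, 1590 in number, were filled by identifier from a list of gene names.

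The genes and the lists (milk proteins, fat globule, lactose and ion transport, lactogenic signal, ovarian steroid and paracrine, and cell type markers) were chosen with earlier results of these data known. Named were all milk genes, up to 4 genes of a list with the smallest F test p, the 3 genes most like each tested gene, leaving out predicted models, and the neighbours of the caseins. Not all of them are reported, and other list genes were chosen after their values were seen. Alternatives were another pseudocount, other filters, rescalings, weights, no trend, a replicate block, pairs of stages alone and leaving out each library. No library pair of 190 had more than 0.0303% equal values.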

Additional observations from a re-analysis of the deposited data

Results flagged for a closer look

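Of 34 groups of 5 mice examined, 7 had a single mouse far from the others of its stage, by the 95% limit of Dixon's ratio. Chance gives about 1 in 20 for normal values, a rate that does not hold for raw FPKM with values at 0, and with 4 mice at 0 the ratio is fixed, as for Csn1s2a at proestrus. Xdh was at 28.4 FPKM in proestrus-2, with the next mouse at 13.5, and at 37.0 FPKM in metestrus-3, with the next at 24.0. Mfge8 was at 61.2 FPKM in estrus-1, with the next at 34.2, and at 50.4 FPKM in metestrus-5, with the next at 36.7. The other 3 lay near the bottom of the scale, Csn1s1 at 0.0250 FPKM in diestrus-1, Csn2 at 0.0264 FPKM in diestrus-3 and Csn1s2a at 0.0129 FPKM in proestrus-1, the only one of its stage above 0. Proestrus-2 and metestrus-3 are also the libraries with the highest and the lowest luminal epithelium score. Over the 20 libraries Xdh and that score had r = -0.199 and rho = -0.146 (adjusted permutation p = 0.697 and 0.892), and r = -0.126 without those 2 libraries. With the score as a covariate Xdh differed between metestrus and proestrus by 0.62 on the log2 scale, against 0.69 without it.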

How the results depend on the processing

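Among the milk genes tested, the count called stayed at 0 in all pairs of stages and the F test under the alternatives, except for metestrus minus proestrus. There Xdh was called with array weights (count 1) and without proestrus-2 (leave-one-out range 0 to 1). Among all genes tested 494 and 329 were called in these settings, against 123 in the main fit. The number of relations with marker scores past the threshold, 1, became 3 with stage means subtracted, 0 with Spearman's rho and 0 without the 2 libraries farthest from the median score, and was 0 to 2 when 1 library was left out. The cause of these changes was not tested. The difference of Csn3 for diestrus minus estrus, -0.09, was 0.19 with the luminal score as a covariate and -0.36 to 0.056 with 1 library left out. That of Ltf for metestrus minus proestrus, -0.67, was 0.0035 without proestrus-2 and metestrus-3 together and -0.83 to -0.27 with 1 library left out. The covariate and the joint omission were chosen after the data were seen. Under the stricter filter Lalba and Muc1 were not tested. Muc1 was also not tested without proestrus-1, proestrus-2, estrus-2, estrus-4 or metestrus-5, or in the joint omission, where 5 genes were. With pairs of stages alone 4 genes were tested, and 5 for proestrus minus diestrus.

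Libraries with the same replicate number did not deviate together (mean r = -0.0778 over 30 pairs, against 0.0197 over 120 pairs of different numbers), and 2 of 20 libraries were closest to their own number. With the replicate block 0 milk genes were called in each pair and in the F test. Because fragment counts were not recovered, values near 0 of Csn1s1, Csn2 and Csn1s2a carry no counting interval, and they may rest on a few fragments. Each p-value rests on 5 mice a stage.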
